A study of Mus musculus with 2 samples.

Results

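Potassium channel genes were followed across the endothelium of normal mouse brain vessels. They were taken as every gene whose symbol starts with Kcn followed by a letter or a digit, so that pore-forming subunits, their auxiliary subunits and the non-coding transcripts of the same loci were all included. This gave 84 of the 18194 genes with a probe set of 1 gene symbol on the array, measured by 167 probe sets. A gene was represented by its probe set with the highest mean of the 2 arrays. Endothelial cells were sorted by flow cytometry from the brain vasculature of normal C57BL/6 mice, and total RNA was amplified and hybridized to Affymetrix mouse genome arrays. One population was CD31+ Prom1+ (CD31+CD133+ in the labels) and the other was CD31+ Prom1- (CD31+CD133-), with 1 array per population. Prom1, the membrane protein also called CD133 or prominin-1, and CD31, the adhesion molecule of endothelium, were both sorted as surface proteins. CD31 is also carried by some blood cells. How many mice were pooled, and their age, is not given in the sources used here.

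Potassium channels let potassium ions leave or enter a cell along their gradient and so set its membrane potential. In arterioles, calcium entering the endothelium opens calcium-activated channels, and the hyperpolarization spreads through gap junctions to smooth muscle, which relaxes. Brain capillary endothelium is also known to sense potassium released by active neurons through inward rectifier channels, while pericytes and smooth muscle carry their own set of ATP-sensitive, voltage-gated and large-conductance calcium-activated channels.

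Signals are given as multiples of the median signal of the same array. A signal below a floor of 1.67 times the median was treated as too low to measure, and a gene was counted as different when the signals, raised to that floor, differed by at least 2-fold. Since each population was measured once, no test was made, and each fold compares these 2 arrays without a replicate check. Where 1 of the signals lay under the floor the fold is a bound, written as "at least". In bulk samples such as these, fewer cells of a type and less RNA per cell cannot be told apart.

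The sorted cells carried endothelial transcripts, and the array did not separate the populations by Prom1 itself. Pecam1, the gene of CD31, had 69.2 in Prom1+ and 48.2 in Prom1-, and of 12 endothelial markers 1 was at least 2-fold higher and none was lower. Prom1 had 159 in the array labelled Prom1+ and 196 in the array labelled Prom1-, so its transcript went slightly against the labels, and the populations are called by their labels throughout. Markers of neighboring cells were present in both sorts. Those of mural cells (pericytes and smooth muscle) summed to 382 in Prom1+ and 1178 in Prom1-, with 11 of 12 at least 2-fold lower in Prom1+. Those of microglia summed to 107 in Prom1+ and 247 in Prom1-, with 8 of 11 lower, and those of fibroblasts to 50.9 in Prom1+ and 332 in Prom1-, with 3 of 8 lower. Most of the fibroblast sum came from Ptgds, and without it the sum was 10.6 in Prom1+ and 27.2 in Prom1-. Those of oligodendrocytes summed to 218 in Prom1+ and 441 in Prom1-, with Mbp and Mobp at least 2-fold lower and Cnp at least 2-fold higher among 9.

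Most potassium channel genes were not measurable in these cells. Of the 84, 19 (22.6%) reached the floor on at least 1 array, against 59.3% of all 18194 genes. In Prom1+ 10 (11.9%) reached it, against 55.9% of all genes, and in Prom1- 18 (21.4%) did, against 54.8%. Thus 9 channel genes reached the floor in both populations, 9 in Prom1- alone, and 1, Kcnt2, in Prom1+ alone. Of all 18194 genes 9360 reached it in both, 617 in Prom1- alone and 816 in Prom1+ alone. Only 2 channel genes (2.38%) were at least 2-fold higher in Prom1+, Kcnq1 and Kcnk6, while 16.7% of all genes were. By contrast 8 (9.52%) were at least 2-fold lower in Prom1+, where 2.83% of all genes were. These 8 were Kcnma1, Kcnmb1, Kcna5, Kcnab1, Kcne4, Kcnk3, Kcnj13 and the non-coding Kcnq1ot1, whose probe sets disagreed in direction. The median log2 ratio of the 19, Prom1+ over Prom1-, was -0.84, against 0.66 over the 10793 genes of the whole array that reached the floor. That median rests on genes of which 10 passed the floor on 1 array alone, which fixes the sign of their ratio. Among the 8 lower genes Kcnma1, Kcnmb1, Kcnj13 and Kcnq1ot1 passed it in Prom1- alone, so they could not have been called higher.

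**Figure D1:**
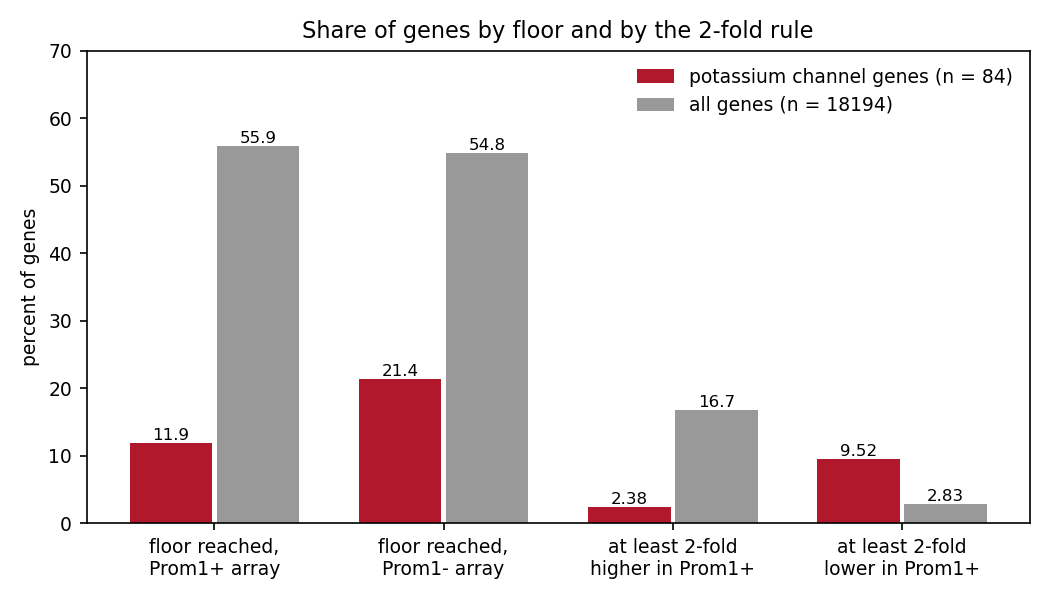
Share of potassium channel genes (red, n = 84) and of all genes (grey, n = 18194), in percent, that reached the floor on each array and that were at least 2-fold higher or lower in Prom1+. The channel genes reached the floor less often than all genes on both arrays, and 9.52% of them against 2.83% of all genes were lower in Prom1+.

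Both measured subunits of the large-conductance calcium-activated potassium channel (BK) were lower in Prom1+. BK is the channel that calcium release opens in vascular smooth muscle. Kcnma1, which encodes its pore, had a signal of 1.24 in Prom1+, under the floor, and 14.8 in Prom1-, at least 8.81-fold lower in Prom1+. A second probe set of Kcnma1 gave 0.221 in Prom1+ and 4.25 in Prom1-, at least 2.54-fold lower. Both probe sets passed the floor in Prom1- alone, which fixed their direction, so their agreement adds no support. The mean of the log2 values over all probe sets of Kcnma1 lay under the floor on both arrays, so its call rests on the probe set chosen. Kcnmb1, the beta subunit that raises the calcium sensitivity of BK in smooth muscle, had 0.832 in Prom1+ and 5.09 in Prom1-, at least 3.04-fold lower, although with the mean over probe sets its log2 ratio was -0.84 and with a floor of 200 it was -0.60, both short of 2-fold. Its second probe set had 0.173 in Prom1+ and 1.76 in Prom1-, just over the floor. Pore and beta subunit were thus both below the measurable range in Prom1+ and both within it in Prom1-. The other beta subunits, Kcnmb2 and Kcnmb4, which are known from chromaffin cells and neurons, were under the floor on both arrays. The leucine-rich auxiliary subunits of BK, Lrrc26, Lrrc38 and Lrrc52, were also under the floor on both arrays.

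The mural markers moved with BK. The smooth muscle genes Acta2, Tagln and Myh11 had 81.6, 43.6 and 21.4 in Prom1+, against 295, 206 and 85.5 in Prom1-, and the pericyte receptor Pdgfrb had 19.3 in Prom1+ and 57.2 in Prom1-. All 12 mural markers reached the floor in Prom1- and 10 did in Prom1+, and none was at 0 on either array. Their part in the BK result was not tested.

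The promoters of the BK pair are shown because the genes stood together in these arrays and their upstream sequences differ widely in base composition. Each is the stretch of 250 bases before the gene start on the coding strand, from RefSeq on GRCm38.p6, and capitals mark each GC box (GGGCGG on either strand, read as CCGCCC on the opposite one, overlapping matches included). That of Kcnma1 lies at chr14:24004206-24004455 on the minus strand and that of Kcnmb1 at chr11:33962763-33963012 on the plus strand.
Kcnma1: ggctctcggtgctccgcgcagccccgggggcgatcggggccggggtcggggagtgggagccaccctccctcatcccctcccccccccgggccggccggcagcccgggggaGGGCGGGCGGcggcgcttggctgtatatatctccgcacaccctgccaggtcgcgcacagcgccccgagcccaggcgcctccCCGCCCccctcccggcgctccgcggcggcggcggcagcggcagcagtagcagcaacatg
Kcnmb1: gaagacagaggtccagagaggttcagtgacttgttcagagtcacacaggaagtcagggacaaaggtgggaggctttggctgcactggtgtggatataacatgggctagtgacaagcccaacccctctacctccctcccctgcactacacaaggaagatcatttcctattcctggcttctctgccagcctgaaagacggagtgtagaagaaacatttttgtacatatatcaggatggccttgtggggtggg

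The Kcnma1 window held 3 GC boxes and 31 CpG sites and was 79.2% G or C, whereas the Kcnmb1 window held 0 boxes and 1 CpG site and was 50.8% G or C. Over all 32851 promoters of the table, 32.7% held a box, with a median of 6 CpG sites and 52.4% G or C. The pore gene thus has a CpG-rich upstream window and the beta subunit gene does not. Promoters were given for 64 of the 84 channel genes, 89 windows in all, of which 44.9% held a box. A match describes the letters of the window only.

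**Figure D2:**
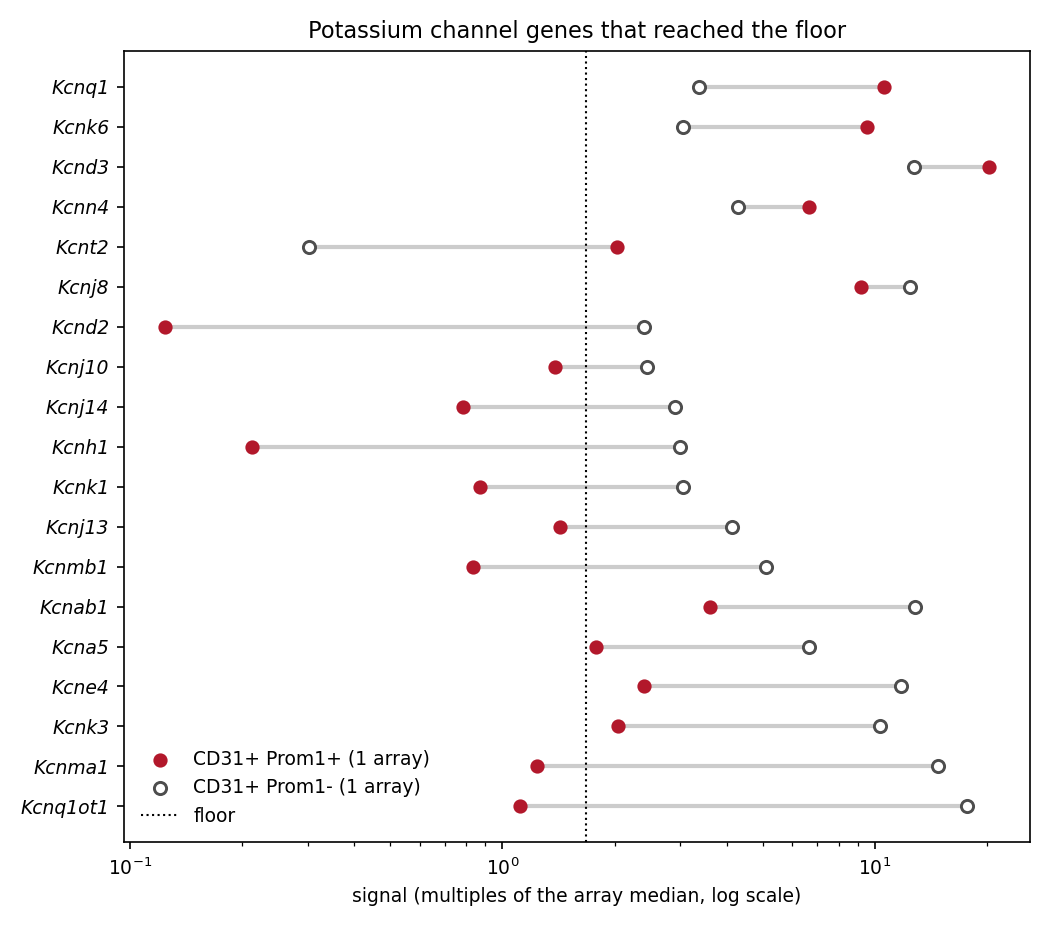
Signal of the 19 potassium channel genes that reached the floor, in multiples of the array median on a log scale, in CD31+ Prom1+ (filled) and CD31+ Prom1- cells (open), 1 array each. The dotted line is the floor of 1.67, and for 9 genes the filled point lies left of it and the open point right of it.

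Of the other calcium- and sodium-activated channels only Kcnn4 and Kcnt2 reached the floor. Kcnn4 encodes the intermediate-conductance channel through which calcium hyperpolarizes endothelium, and it had 6.64 in Prom1+ and 4.29 in Prom1-, 1.55-fold higher, short of 2-fold and with a sign that turned under another scaling. Its second probe set gave 2.34 in Prom1+ and 0.535 in Prom1-, at least 1.4-fold higher. With the mean over its probe sets the log2 ratio of Kcnn4 was 1.23, over 2-fold. Kcnn4 was therefore measured in both populations and BK in 1 of them. Kcnn3, the small-conductance channel that is the usual companion of Kcnn4 in arterial endothelium, was represented by 1 probe set, at 0.0731 in Prom1+ and 0.0640 in Prom1-, within the range of the Bacillus control probe sets (up to 0.234 in Prom1+ and 0.276 in Prom1-), which match no mouse transcript. Kcnt2, a sodium-activated channel, had 2.03 in Prom1+ and 0.303 in Prom1-, at least 1.21-fold higher. It was the 1 channel gene measurable in Prom1+ alone, and its signal there was close to the floor.

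Among the inward rectifiers, 4 of 15 genes reached the floor, 1 was at least 2-fold lower and none was higher. Kcnj8 encodes Kir6.1, the pore of the vascular ATP-sensitive potassium channel, which opens when the cell runs short of ATP. Its signal was 9.15 in Prom1+ and 12.4 in Prom1-, 1.35-fold lower as deposited, with a sign that turned under another scaling. Abcc9, the sulfonylurea receptor SUR2 that assembles with it, had 6.68 in Prom1+ and 14.8 in Prom1-, 2.21-fold lower. Both subunits were thus measured in both populations, and as deposited only the receptor passed the 2-fold rule. Under 5 other scalings Kcnj8 was at least 2-fold lower in 2 and Abcc9 in 4. The log2 ratio of Abcc9 came as near to 0 as -0.09, so no difference within the pair is settled. The alternative pair, Kcnj11 and Abcc8, which forms the channel of pancreatic beta cells, was under the floor on both arrays. Kcnj11 had 0.196 in Prom1+ and 0.578 in Prom1-, and Abcc8 had 0.211 in Prom1+ and 0.394 in Prom1-.

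Kcnj8 and Abcc9 lie next to each other in the mouse genome, and their promoters are shown as those of the 1 pore and receptor pair that was measured in both populations. That of Kcnj8 is at chr6:142571615-142571864 and that of Abcc9 at chr6:142702275-142702524, both on the minus strand of GRCm38.p6 from RefSeq, with GC boxes in capitals as above.
Kcnj8: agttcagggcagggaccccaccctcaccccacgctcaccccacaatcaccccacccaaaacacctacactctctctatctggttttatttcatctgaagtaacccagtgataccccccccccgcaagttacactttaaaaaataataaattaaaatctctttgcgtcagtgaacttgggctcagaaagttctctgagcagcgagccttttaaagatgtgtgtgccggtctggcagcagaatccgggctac
Abcc9: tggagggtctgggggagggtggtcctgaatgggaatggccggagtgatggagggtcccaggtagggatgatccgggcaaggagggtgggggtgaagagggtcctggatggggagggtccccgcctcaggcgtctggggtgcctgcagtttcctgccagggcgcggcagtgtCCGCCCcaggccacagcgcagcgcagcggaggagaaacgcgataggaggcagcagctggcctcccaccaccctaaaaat

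The Kcnj8 window held 0 boxes and 6 CpG sites at 49.2% G or C, and the Abcc9 window held 1 box and 12 CpG sites at 66.8% G or C. The pore gene lay near the median of all promoters in CpG sites and the receptor gene above it.

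Other inward rectifiers were measured in Prom1- alone. Kcnj13, which encodes Kir7.1, a channel of choroid plexus and retinal pigment epithelium, had 1.43 in Prom1+ and 4.14 in Prom1-, at least 2.47-fold lower. Of 8 markers of ependyma and choroid plexus, 2 were at least 2-fold lower. One was transthyretin (Ttr), at 210 in Prom1+ and 426 in Prom1-, and the other the choroid plexus folate receptor Folr1, at 0.918 in Prom1+ and 4.79 in Prom1-. The list summed to 216 in Prom1+ and 438 in Prom1-, and to 5.80 in Prom1+ and 12.1 in Prom1- without Ttr, 6 of its 8 markers were under the floor in Prom1+ and 4 in Prom1-, and its part in the Kcnj13 result was not tested. Kcnj10, which encodes Kir4.1, the potassium-buffering channel of astrocytes, had 1.39 in Prom1+ and 2.44 in Prom1-, at least 1.46-fold lower as deposited, again with a sign that turned. The astrocyte genes Gfap and Aqp4 were under the floor on both arrays, and of the 10 astrocyte markers 2, S100b (3.11 in Prom1+ and 15.9 in Prom1-) and Gjb6 (0.280 in Prom1+ and 3.57 in Prom1-), were lower by at least 2-fold, and no other marker of the list was called. The list summed to 113 in Prom1+ and 115 in Prom1-, most of it from Gja1, which endothelium also expresses, and to 28.9 in Prom1+ and 48.1 in Prom1- without it. Its part in the Kcnj10 value was not tested. Kcnj14, which encodes Kir2.4, a rectifier known from motor neurons in the rat, had 0.784 in Prom1+ and 2.91 in Prom1-, at least 1.74-fold lower. Kcnj10 and Kcnj14 were close to the floor where they were measured. Kcnj2, which encodes Kir2.1, the rectifier known from brain capillaries as a potassium sensor, was represented by 1 probe set, at 0.0197 in Prom1+ and 0.0303 in Prom1-, within the range of the control probe sets. Kcnj16, the astrocyte partner of Kcnj10, had 0.0254 in Prom1+ and 0.318 in Prom1-, also under the floor.

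The tandem-pore channels, which carry the background leak of potassium, moved in both directions. Of 12 genes 3 reached the floor, with 1 higher and 1 lower in Prom1+. Kcnk6, which encodes TWIK-2, a leak channel whose loss raises blood pressure in mice, had 9.52 in Prom1+ and 3.04 in Prom1-, 3.13-fold higher. Kcnk3, which encodes the acid-sensitive TASK-1 of pulmonary artery smooth muscle, had 2.04 in Prom1+ and 10.3 in Prom1-, 5.07-fold lower. Both genes were measured in both populations, so their opposite ratios do not depend on a signal under the floor. The other probe sets of Kcnk3 were under it, as was the mean over all of them. Kcnk1, which encodes TWIK-1, had 0.872 in Prom1+ and 3.06 in Prom1-, at least 1.83-fold lower. Kcnk2, which encodes TREK-1, a mechanosensitive channel described in brain vessels, had 0.0450 in Prom1+ and 0.0213 in Prom1-, within the control range. Kcnk13, which encodes the THIK-1 channel of microglia, had 0.151 in Prom1+ and 0.0718 in Prom1-, also within it, although 10 of 11 microglial markers reached the floor on both arrays.

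**Figure D3:**
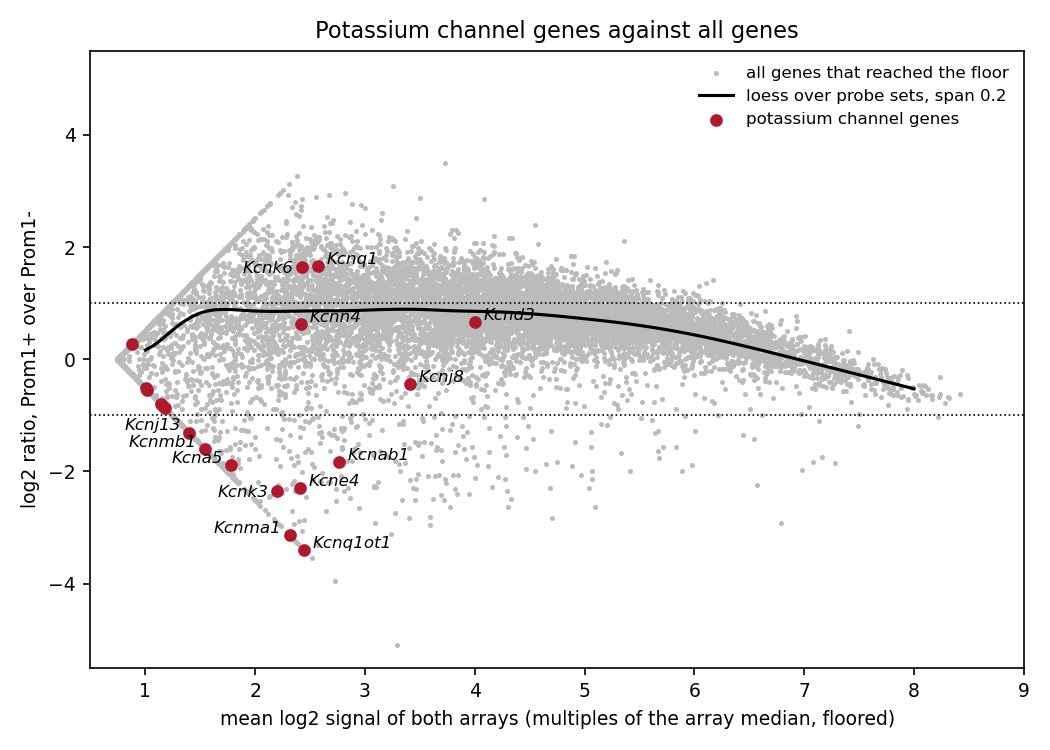
Log2 ratio of Prom1+ over Prom1- signals, both raised to the floor, against the mean log2 signal of both arrays, for all genes that reached the floor (grey) and the potassium channel genes (red). Dotted lines mark 2-fold, the black line is a loess over probe sets, and all but Kcnd3 and Kcnj8 of the 19 channel genes lie below a mean log2 signal of 3.

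Voltage-gated channels were mostly under the floor. Of 22 pore-forming genes 5 reached it, and none of the 9 genes for silent subunits, which alter other subunits but form no channel alone, did. Kcnd3, which encodes Kv4.3, a pore of the fast transient (A-type) current, had 20.2 in Prom1+ and 12.7 in Prom1-, 1.58-fold higher as deposited, with a sign that turned under another scaling. Kcnd2, which encodes Kv4.2 of the same subfamily, had 0.124 in Prom1+ and 2.40 in Prom1-, at least 1.43-fold lower. The usual partners of this subfamily, the calcium-binding proteins Kcnip1 to Kcnip4 and the peptidase-like Dpp6 and Dpp10, were all under the floor on both arrays. Thus a Kv4 pore was measured in both populations by the chosen probe set of Kcnd3, while its known partners were measured in neither. The other probe sets of Kcnd3 were under the floor on both arrays, as was the mean over all of them.

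Kcnq1 and Kcne4 went in opposite directions. Kcnq1 encodes Kv7.1, a slowly activating channel of heart and epithelia, and had 10.6 in Prom1+ and 3.36 in Prom1-, 3.15-fold higher. Kcne4, a single-span subunit that inhibits Kv7.1 when both are expressed together, had 2.40 in Prom1+ and 11.8 in Prom1-, 4.90-fold lower. All 4 signals were above the floor. Kcne1, the subunit of the cardiac Kv7.1 channel, had 0.0292 in Prom1+ and 0.131 in Prom1-, within the control range, and Kcne2 and Kcne3 were under the floor on both arrays.

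Kcna5 and Kcnab1 were both lower in Prom1+. Kcna5 encodes Kv1.5, a delayed rectifier of vascular smooth muscle, and had 1.79 in Prom1+, just over the floor, and 6.63 in Prom1-, 3.71-fold lower. Kcnab1, the beta subunit that speeds the inactivation of Kv1 channels, had 3.60 in Prom1+ and 12.8 in Prom1-, 3.56-fold lower. As with BK, a pore subunit and an auxiliary subunit of 1 channel family were lower together, and the mural markers were lower beside them. The part of the mural markers in the Kcna5 and Kcnab1 values was not tested. With the hybridization controls set equal Kcna5 and Kcnab1 fell short of 2-fold, while Kcnma1 and Kcnmb1 did not. The ratios of Kcnma1 and Kcnmb1 are bounds, which this scaling moved less. Kcnmb1 went from -1.60 to -1.075 on the log2 scale, and the measured Kcna5 from -1.89 to -0.835. The pairs cannot be ranked by this scaling. The other beta subunits, Kcnab2 and Kcnab3, were under the floor on both arrays. Kcnh1, which encodes the ether-a-go-go channel of neurons, had 0.213 in Prom1+ and 2.99 in Prom1-, at least 1.79-fold lower. Among 10 neuronal markers 3 were at least 2-fold lower (Snap25, Syt1 and Map2), and the list summed to 83.4 in Prom1+ and 72.5 in Prom1-, most of it from Stmn2, at 79.5 in Prom1+ and 45.1 in Prom1-. Without Stmn2 the sum was 3.85 in Prom1+ and 27.4 in Prom1-. Their part in the Kcnh1 and Kcnd2 values was not tested.

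The Kcnq1 locus also yields Kcnq1ot1, a long non-coding RNA that is read antisense to Kcnq1 from the paternal allele and silences neighboring genes. Its probe set of highest mean had 1.11 in Prom1+ and 17.7 in Prom1-, at least 10.6-fold lower. A second had 0.0210 in Prom1+ and 3.06 in Prom1-, at least 1.83-fold lower, while another had 4.13 in Prom1+ and 2.63 in Prom1-, 1.57-fold higher. The probe sets therefore disagreed in direction, and Kcnq1ot1 has no settled ratio here. The antisense transcripts of Kcnmb4 were under the floor on both arrays.

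The 65 channel genes under the floor on both arrays reached at most 1.495 in Prom1+ (Kcnj15) and 1.51 in Prom1- (Kcnt1). Of these, 29 lay within the range of the Bacillus control probe sets on both arrays. A signal under the floor is no measure of absence, since 38 of the 84 genes had a single probe set on the array.

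The signal range bears on these counts, since the shift between the arrays varied with brightness. Of the 19 channel genes 8 had a mean floored log2 signal from 2 to 3, and 2 of these were higher and 5 lower. In this range 44.7% of all 1644 genes were higher and 7.36% were lower, with a median log2 ratio of 0.91. Another 8 lay from 1 to 2, with none higher and 3 lower, where 32.1% of all 1643 genes were higher and 15.2% lower. All of these 8 but Kcna5 passed the floor in Prom1- alone and could not have been called higher. Kcnq1 and Kcnk6, at log2 ratios of 1.66 and 1.65, lay in the range from 2 to 3, and after a loess fit that removed the shift with signal both stood at 0.79, short of 2-fold.

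**Figure D4:**
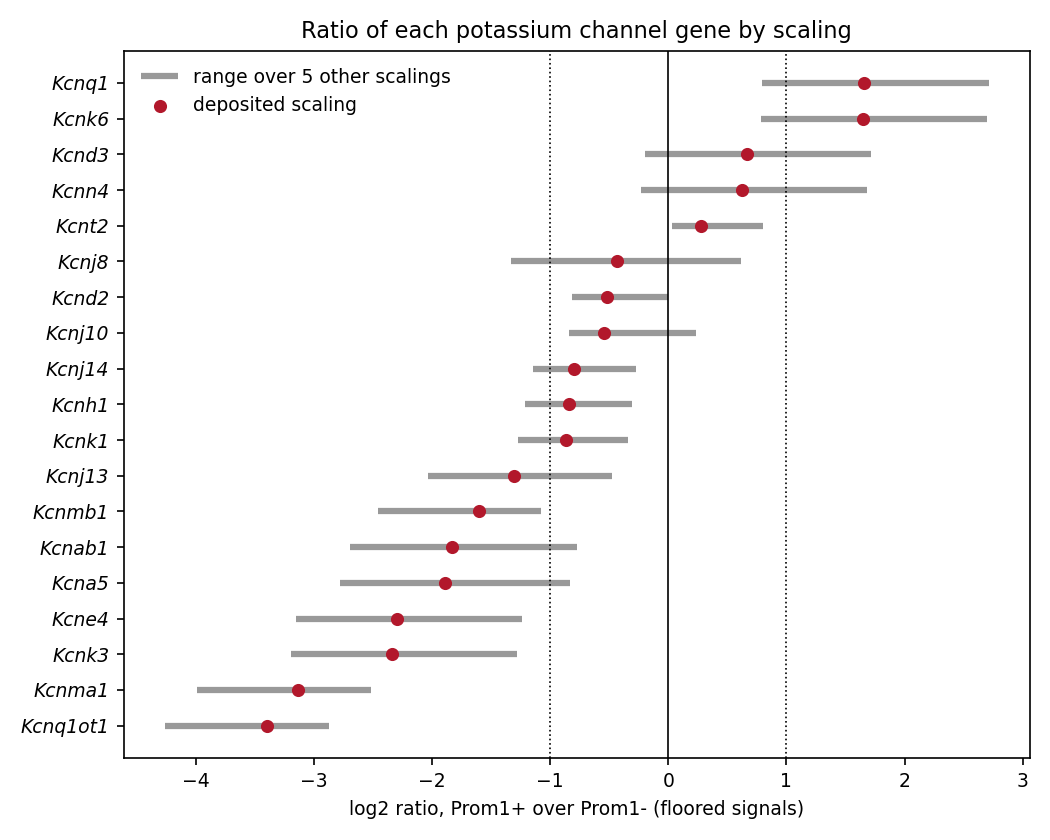
Log2 ratio of Prom1+ over Prom1- signals, raised to the floor, for the 19 potassium channel genes under the deposited scaling (red point), with the range over 5 other scalings (grey bar). Dotted lines mark 2-fold, and all bars of the 8 genes called lower lie below 0, while those of Kcnd3, Kcnn4, Kcnj8 and Kcnj10 cross it.

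The share of all genes called in each direction depended on how the arrays were scaled. It was 16.7% higher and 2.83% lower as deposited, 4.77% and 4.80% with equal trimmed means, 1.79% and 5.41% after loess and 48.2% and 0.973% with the hybridization controls set equal. Among the channel genes 2 were higher and 11 lower with equal trimmed means, 0 and 12 after loess, and 4 and 5 with the hybridization controls. Kcnq1ot1, whose probe sets disagreed, is among the lower calls of each of these scalings, and without the non-coding transcripts the deposited scaling gave 2 higher and 7 lower. The direction of the called channel genes did not turn. Under the 5 other scalings tried all 8 lower genes stayed below 0 and both higher genes stayed above it. The shifts were too small to turn them. The hybridization controls had a median log2 ratio of -1.06, while the lower gene nearest 0, Kcnj13, stood at -1.305 as deposited. The loess fit was 0.86 at Kcnq1 and Kcnk6, which stood at 1.66 and 1.65. The kept signs therefore follow from the size of the deposited ratios and add no separate support. Kcne4, Kcnk3, Kcnma1 and Kcnmb1 were at least 2-fold lower under each of the 5, as was the probe set of Kcnq1ot1 with the highest mean, and Kcna5, Kcnab1 and Kcnj13 under 4 of them. Of the 9 genes that differed by less than 2-fold, 4 changed sign. Kcnd3 ranged from -0.19 to 1.72 on the log2 scale, Kcnn4 from -0.23 to 1.68, Kcnj8 from -1.33 to 0.62 and Kcnj10 from -0.84 to 0.24. No direction is therefore given for these 4 beyond their deposited values. Kcnd2, Kcnh1, Kcnj14, Kcnk1 and Kcnt2 did not turn, but each passed the floor on 1 array alone as deposited. Kcnh1, Kcnj14 and Kcnk1 were at least 2-fold lower under 3 of the 5 other scalings and Kcnj8 under 2. Kcnd3 and Kcnn4 were at least 2-fold higher under 1.

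Genes that work with these channels were counted from lists of their own. Of 32 on the array from lists of receptors, calcium entry channels, gap junctions, pumps and cotransporters, 23 reached the floor, 4 were at least 2-fold higher and 5 lower in Prom1+. Of all genes 59.3% reached the floor, 16.7% were at least 2-fold higher and 2.83% lower. The sign of all 9 called partner genes was the same under the 5 other scalings, whose shifts were again too small to turn it. Slc12a5 and Trpv2 alone kept a 2-fold difference under each of them. Calcium entry genes, which feed the calcium-activated channels, went both ways. Piezo1, the shear-sensing channel of endothelium, had 59.0 in Prom1+ and 25.9 in Prom1-, 2.28-fold higher. Itpr2, a calcium release channel of the endoplasmic reticulum, had 21.0 in Prom1+ and 6.61 in Prom1-, 3.17-fold higher. In contrast Trpv2, a cation channel, had 1.72 in Prom1+ and 9.88 in Prom1-, 5.73-fold lower, and Trpc1 had 2.82 in Prom1+ and 6.60 in Prom1-, 2.34-fold lower. Trpv4, the channel that opens Kcnn4 in endothelium by local calcium entry, had 5.41 in Prom1+ and 3.23 in Prom1-, short of 2-fold.

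Of the genes that move potassium by other routes, the sodium pump subunits Atp1b1 and Atp1b2 were both lower. Atp1b1 had 33.1 in Prom1+ and 98.2 in Prom1-, 2.97-fold lower, and Atp1b2 had 9.89 in Prom1+ and 31.2 in Prom1-, 3.15-fold lower. Another beta subunit, Atp1b3, had 90.5 in Prom1+ and 49.3 in Prom1-, 1.84-fold higher. The potassium chloride cotransporters Slc12a7 and Slc12a5 were higher in Prom1+. Slc12a7 had 36.6 in Prom1+ and 13.8 in Prom1-, 2.66-fold higher, and Slc12a5, known from neurons, had 7.44 in Prom1+ and 1.65 in Prom1-, just under the floor, at least 4.44-fold higher. The gap junction genes Gja1, Gja4 and Gjc1, which couple endothelium and mural cells, reached the floor in both populations and differed by less than 2-fold as deposited. Under the 5 other scalings Gja4 was at least 2-fold lower in 3, and Gja1 and Gjc1 were at least 2-fold higher in 1.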

How the data were processed

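Total RNA of each sorted population was amplified and labeled with biotin by the authors and hybridized to 1 array. Signals were scaled by the authors to a target of 500 and normalized in GeneSpring, and the submitters' processing notes name MAS5. The values deposited by the authors are on a log2 scale relative to the median signal of each array. Detection calls were not given in the sources used here. Gene names came from the platform annotation, in which 34958 of 45101 have 1 gene symbol, 932 have several and were left out, and 9211 are not listed. All 84 channel genes were found by their gene identifiers among mouse genes of GRCm38.p6.

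The values were converted to multiples of that median. The floor was 100 on the scale of 500, carried over by averaging the 2% trimmed means of both arrays (9.94 in Prom1+ and 6.81 in Prom1-) to 1.67 times the median. The number of arrays limits the precision. Within the pair, log2 ratios of probe sets of the same gene had an SD of 0.54 over 3930 genes, which says nothing of the spread between mice. Every channel gene that reached the floor was named with both signals. Its other probe sets were given where they reached the floor and differed in direction or by over 2-fold, or for BK, Kcnn4 and Kcnq1ot1 where they reached the floor. Genes under the floor were named for a known role in vessels or glia, or beside the channel they assemble with. Partner genes were named where they differed by at least 2-fold, with Abcc8, and further partners and marker genes were named beside the channels after their values were seen. The members and lists were chosen with earlier results of these data known. Alternatives were other floors, folds and scalings, the mean over probe sets, and the _x_at and _s_at probe sets left out. The rules were tested on simulated data with changes planted only in genes far above the floor. That test does not cover the lower signals of most channel genes. Calculations were run in Python 3.11.15 with statsmodels 0.14.6, pandas 2.3.3, numpy 2.4.6 and scipy 1.17.1, and plots were drawn with matplotlib 3.10.9.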

Additional observations from a re-analysis of the deposited data

How the results depend on the processing

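The count of 19 channel genes that reached the floor became 31 with a floor of 50 on the scale of 500 and 13 with a floor of 200. It became 13 with the mean over probe sets and 23 with equal trimmed means. The count of 2 higher genes became 3 with a floor of 50, and 3 with the mean over probe sets, where Kcnn4 joined at a log2 ratio of 1.23. It became 4 at 1.5-fold, 17 with no floor, 0 after loess and 4 when the hybridization controls were set equal. The count of 8 lower genes became 12 with a floor of 50 and 5 with a floor of 200 (Kcna5, Kcnj13 and Kcnmb1 lost). It became 37 with no floor, 5 with the hybridization controls (Kcna5, Kcnab1 and Kcnj13 lost) and 4 with the mean over the probe sets of a gene. That mean put Kcnma1 and Kcnk3 under the floor and took Kcnmb1 and Kcnq1ot1 to log2 ratios of -0.84 and -0.19. The median log2 ratio of -0.84 became -0.72 with a floor of 50, -0.60 with 200, -0.98 with equal trimmed means, -1.15 after quantile normalization, -1.27 after loess, -0.54 with the mean over probe sets and -0.31 with the hybridization controls. No direction of a gene called 2-fold turned, but the shifts under the scalings were too small to turn one. The share of all genes is not given here for the other floors and folds or for the mean over probe sets. Over all genes, the scalings moved the split of higher against lower genes. It was 3045 against 515 as deposited, 868 against 873 with equal trimmed means, 691 against 855 after quantile normalization, 326 against 984 after loess, 2268 against 563 with endothelial markers set equal and 8763 against 177 with the hybridization controls, and the median log2 ratio of all genes was 0.66, 0.12, 0.09, 0.03, 0.52 and 1.67 in the same order. The hybridization control scaling and leaving out the non-coding transcripts were chosen after seeing the data. No paired analysis was possible because there was 1 array per population. Low signal limits the rest, since 65 channel genes were under the floor.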
